A study of Acacia koa with 4 samples.

Results

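The redox transcripts of Acacia koa seedlings described here are those whose annotated similar protein is a peroxidase, a glutathione enzyme, a superoxide dismutase, a catalase, an ascorbate enzyme, a thioredoxin, a peroxiredoxin or a respiratory burst oxidase. They were found by searching the descriptions on the array for these words, which matched 132 of 4000 transcripts. Of these, 5 nucleobase ascorbate transporters were left out, and 127 members remained, with 80 distinct descriptions. Peroxidases made up 43 of them and glutathione enzymes 39, with 2 glutathione peroxidases counted in both. The remaining members were 20 thioredoxins and thioredoxin reductases, 9 further ascorbate genes, 6 respiratory burst oxidases, 6 superoxide dismutases, 5 catalases and 1 peroxiredoxin. The 6 ascorbate peroxidases are part of the 43 peroxidases. All these counts follow the words of the descriptions, some of which are cut off or name only a domain.

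Plant cells use hydrogen peroxide and superoxide as signals and as substrates, and keep them in check with a layered set of enzymes. Respiratory burst oxidases are NADPH oxidases of the plasma membrane that make superoxide outside the cell, and superoxide dismutases turn superoxide into hydrogen peroxide. Catalases in peroxisomes remove hydrogen peroxide, as do ascorbate peroxidases, glutathione peroxidases and peroxiredoxins, to which glutathione, ascorbate and thioredoxin supply the electrons. Class III peroxidases are secreted haem enzymes that use hydrogen peroxide to oxidise phenolic compounds, and in this way they join lignin units and cross-link wall polymers in stems. Glutathione S-transferases attach glutathione to reactive compounds, and lactoylglutathione lyase, also called glyoxalase I, uses it to clear methylglyoxal.

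Acacia koa is a leguminous tree of Hawaii. RNA came from frozen, ground seedlings in 2 groups, each of 2 pools of about 20 plants: stressed seedlings, whose stems had been bent by hand to 4 sides and not wounded, and unstressed seedlings, which were not described as bent. The sources used here do not give the genotype, the age or the time from bending to freezing. Each pool was labelled with the dye Cy3 and measured on its own 1-colour NimbleGen array. Each value rests on 18 probes for every member and is an RMA intensity, a background-corrected and normalised brightness summarised over the probes by the authors. Median intensities were 981 to 1018 over all transcripts and 1386 to 1530 over the members, by array. The array held 2 transcripts of the photosynthesis search, a chlorophyll a/b-binding protein (A61, 61684 to 63243) and the photosystem II protein PsbR (A73, 29096 to 30572). Both are defining genes of green tissue, and their log2 differences were −0.00 and −0.04. A61 stood close to the highest intensity of any transcript (64415 to 64925 by array). Signals this close to the top could hide a change, so its difference cannot show that green tissue was equal between groups. In RNA from pooled seedlings, fewer cells of a type and less RNA per cell cannot be told apart.

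No redox transcript passed the test of stressed against unstressed pools across the whole array (limma, Benjamini-Hochberg adjusted p under 0.05 over 4000 transcripts). The background was small, since 38 of all transcripts, 0.95%, were called: 0.925% higher and 0.025% lower in stressed pools. The smallest adjusted p among the members was 0.099, for the lignin biosynthetic peroxidase A763. An alternative fit with the titles' replicate numbers as a term called 6 members, among 139 transcripts in all. The labels do not tie same-numbered pools together, so it is given only as an alternative, in the closing section. Without adjustment, 7 members (5.51%) were higher at p under 0.05, against 3.83% of all transcripts, and 5 members (3.94%) were lower, against 1.68% of all transcripts. These shares are descriptive, because the p-values behind them are not adjusted for the number of transcripts. The total of 12 changed with single arrays: it was 6 without stressed replicate 1 and 21 without unstressed replicate 2, and the 5 lower members became 0 without stressed replicate 2.

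The members as a whole were centred close to 0. Their median log2 difference was 0.02, with 69 positive and 58 negative, beside a median of −0.04 over all transcripts. Differences ranged from −0.61 to 0.99, and 94 of the 127 lay within 0.25 of 0 (74.0%, against 81.5% of all transcripts). In 20 members both stressed arrays lay above both unstressed arrays (15.7%, against 12% of all transcripts). In another 20 members both stressed arrays lay below (15.7%, against 19.5%). The groups overlapped in the other 87, which is 68.5% of members and 68.5% of all transcripts. The median half-width of limma's 95% confidence interval was 0.40 on the log2 scale, or 1.32-fold either way. For 109 members the whole interval lay within a 2-fold difference in either direction (85.8%, against 92.1% of all transcripts). For 75 members it lay within 1.5-fold, as it did for 2473 of all 4000 transcripts.

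The spread between pools set the scale for these differences. Unstressed pools differed from each other by a median of 1.18-fold over the members and stressed pools by 1.12-fold. The unstressed gap was the larger one in 79 of 127 members (62.2%, against 63.4% of all transcripts). The group difference exceeded the larger of these gaps in 28 members (22.0%, against 20.2% of all transcripts). Of the 9 members at least 0.5 higher on the log2 scale, 7 were brighter in stressed replicate 1 than in stressed replicate 2. Over all 4000 transcripts 149 were at least 0.5 higher, and 57 of these were brighter in stressed replicate 1. The widest gap between replicate pools belonged to the glutathione S-transferase A51439, at 337 and 887 in the unstressed pools against 419 and 464 in the stressed pools. Its stressed values lay inside the range of the unstressed ones.

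**Figure D1:**
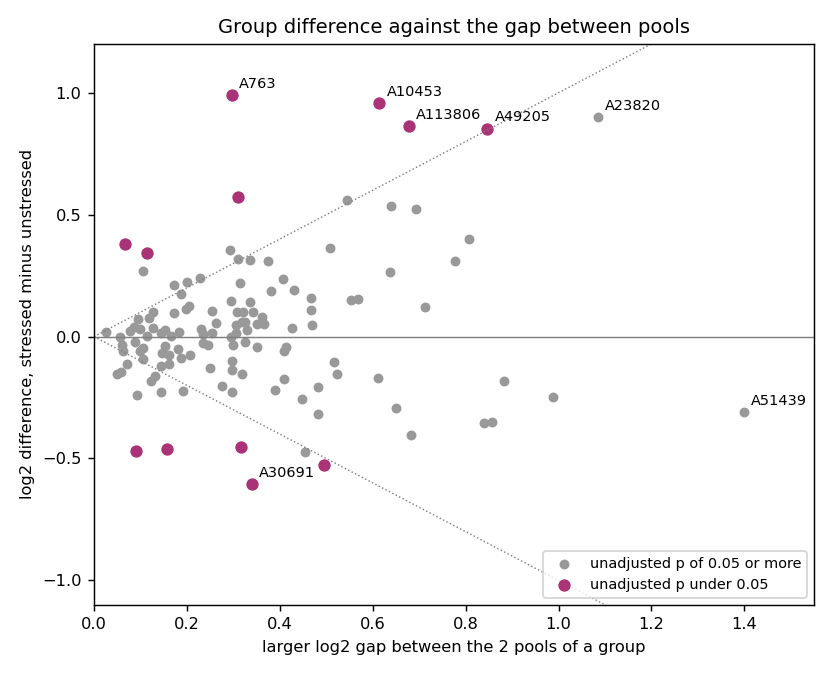
Log2 difference between stressed and unstressed pools (vertical axis) against the larger log2 gap between the 2 pools of a group (horizontal axis), 1 point for each of 127 redox transcripts. Dotted lines mark equal size, and points outside them (28 members, such as A763 and A10453) differ between groups by more than either pair of replicate pools differs.

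Among the 43 peroxidases, none was called, and the median log2 difference was 0.02. At unadjusted p under 0.05, 4 were higher and 3 lower, where 3.83% of all transcripts were higher and 1.68% lower. They were spread more widely than the array as a whole, with a median absolute log2 difference of 0.22 against 0.12 for all transcripts. The gap between the unstressed pools was also wider for peroxidases, at 1.23-fold against 1.16-fold for all transcripts, and its part in the wider spread was not tested. In 8 peroxidases both stressed arrays lay above both unstressed ones (18.6%, against 12% of all transcripts). In 8 they lay below (18.6%, against 19.5%), a share close to that of the whole array. The 35 peroxidases that were neither ascorbate nor glutathione peroxidases had a median difference of 0.11, with 20 positive and 15 negative.

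A763 is described as a lignin biosynthetic peroxidase, the kind that oxidises lignin units in the wall. Its intensity was 2534 and 3113 in the unstressed pools and 5598 and 5567 in the stressed pools. The stressed values were nearly equal to each other and above both unstressed values. In log2 terms it went from 11.46 ± 0.21 (SD, n = 2) to 12.45 ± 0.01 (SD, n = 2), a 1.99-fold difference upward with a 95% interval of 1.52 to 2.59 and a limma adjusted p of 0.099. The difference was 0.84 to 1.14 when 1 array at a time was left out. A763 was called only with the replicate numbers as a term (limma adjusted p = 0.00033), a pairing the labels do not give.

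The basic peroxidase swpb4 homolog A113806 had intensities of 568 and 515 in unstressed and 1242 and 776 in stressed pools. The 1.82-fold difference upward had an interval of 1.16 to 2.84 and a limma adjusted p of 0.54, and stressed replicate 1 alone was more than 2-fold above both unstressed pools. A peroxidase 5 precursor (A9782) stood at 654 and 925 in unstressed and 1384 and 949 in stressed pools, 1.47-fold higher (0.92 to 2.36, adjusted p = 0.99). Its groups were separated only by the small step from unstressed replicate 2 to stressed replicate 2.

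Tighter but smaller differences were found in other peroxidases. Among A21667, A2039 and A672, only A21667 is described as class III. The description of A2039, a haem peroxidase of plants, fungi or bacteria, gives no class. The class III peroxidase A21667 was at 1193 and 1170 in unstressed and at 1501 and 1571 in stressed pools, 1.30-fold higher (1.05 to 1.60, limma adjusted p = 0.62). The haem peroxidase A2039 was at 6437 and 6390 in unstressed and at 8458 and 7816 in stressed pools, 1.27-fold higher (1.02 to 1.57, adjusted p = 0.78). In both transcripts the pools of a group lay within 1.08-fold of each other and the groups did not overlap. The cationic peroxidase 2 homolog A672 was at 15250 and 17523 in unstressed and 19902 and 18336 in stressed pools, 1.17-fold higher (adjusted p = 0.99). Its groups did not overlap, although the step between them was smaller than the unstressed gap.

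Other peroxidases were lower in stressed pools, without passing the test. Peroxidase 66 precursor homolog A30691 was at 3229 and 4085 in unstressed and 2592 and 2196 in stressed pools. It was 1.52-fold lower (1.11 to 2.08, limma adjusted p = 0.54), and no stressed value reached an unstressed one. A second peroxidase 5 precursor (A229987) was at 3137 and 4421 in unstressed and 2715 and 2454 in stressed pools, 1.44-fold lower (1.01 to 2.07, adjusted p = 0.88). The anionic peroxidase swpa5 homolog A193605 was at 4351 and 5961 in unstressed and 3408 and 3948 in stressed pools, 1.39-fold lower (0.98 to 1.97, adjusted p = 0.97). In A30691, A229987 and A193605 unstressed replicate 2 was the brightest of the 4 arrays. Smaller negative differences with separated groups were seen for a cationic peroxidase (A108480, log2 difference −0.32) and a peroxidase 1 homolog (A28413, −0.22), both at a limma adjusted p of 0.99.

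**Figure D2:**
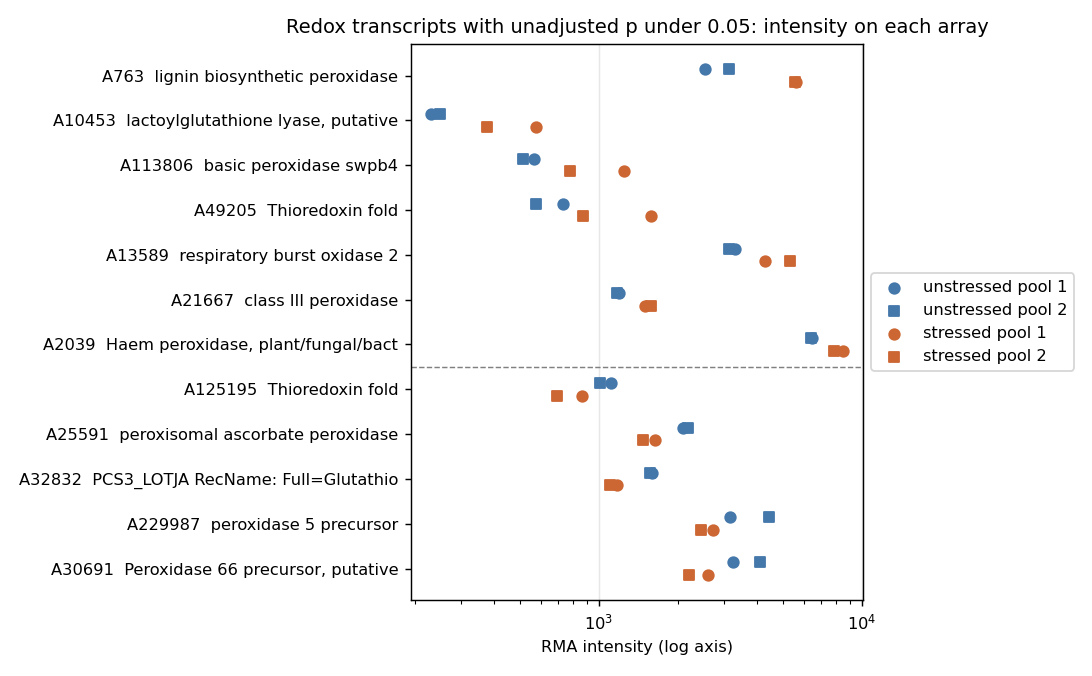
RMA intensity (log axis) on each of the 4 arrays for the 12 redox transcripts with an unadjusted p under 0.05, unstressed pools in blue and stressed pools in orange, circles for replicate 1 and squares for replicate 2. Above the dashed line 7 transcripts are higher in stressed pools, led by A763, whose stressed points lie on top of each other, and below it 5 are lower. None passed the adjusted threshold in the fit with group as its only term.

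Of the 39 glutathione enzymes none was called, and the median log2 difference was 0.03, with 24 positive and 15 negative. At unadjusted p under 0.05, 1 was higher and 1 lower, where 3.83% of all transcripts were higher and 1.68% lower. A11816, A29170, A68188 and A92367 are counted here, though their cut-off description, glutathione-regulated, names no enzyme. Their log2 differences ran from −0.17 to 0.06. Lactoylglutathione lyase A10453 stood at 231 and 249 in unstressed and 576 and 376 in stressed pools. It was 1.94-fold higher (1.29 to 2.93, limma adjusted p = 0.35), with log2 values of 7.91 ± 0.08 (SD, n = 2) and 8.86 ± 0.43 (SD, n = 2). Both stressed pools were above both unstressed pools, and the stressed pools differed from each other by 1.53-fold. A second transcript that resembles the same lyase, A9747, was at 1761 and 1131 in unstressed and 2214 and 1895 in stressed pools, 1.45-fold higher (0.94 to 2.25, adjusted p = 0.99). Another lyase (A996), which resembles another protein, was at 22176 and 20548 in unstressed and 18046 and 19657 in stressed pools, 1.13-fold lower (0.90 to 1.42, adjusted p = 0.99), with separated groups.

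The lower member was A32832, whose truncated description carries the database name PCS3_LOTJA. That name stands for a phytochelatin synthase, which builds metal-binding peptides from glutathione. Its intensity was 1594 and 1561 in unstressed and 1175 and 1104 in stressed pools, 1.39-fold lower (1.12 to 1.71, limma adjusted p = 0.40). Replicate pools lay within 1.06-fold of each other and the groups did not overlap. Glutathione reductase, which regenerates glutathione with NADPH, was represented by 6 transcripts. A350254, A377711 and A380187 among them stayed under 70 on every array. Of the others, A115894 was at 765 and 717 in unstressed and 612 and 641 in stressed pools, 1.18-fold lower (0.95 to 1.47, adjusted p = 0.99). A17298 and A2140 had overlapping groups and log2 differences of −0.13 and 0.03.

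Glutathione S-transferases numbered 19, with a median log2 difference of 0.04, and the groups overlapped in 16 of them (84.2%, against 68.5% of all transcripts). The omega-class homolog A23820 had the widest difference of the family and the least certain one. It was at 372 and 696 in unstressed and 1383 and 652 in stressed pools, 1.87-fold higher, with an interval from 0.81 to 4.28 (limma adjusted p = 0.99). The value of 1383 came from stressed replicate 1 alone, and stressed replicate 2 lay below unstressed replicate 2. A18684 was at 425 and 427 in unstressed and 603 and 493 in stressed pools, 1.28-fold higher (0.98 to 1.67, adjusted p = 0.97). It was the only transferase with both stressed arrays above both unstressed ones. A98, the brightest transferase, ran from 37664 to 40002 over the arrays, and its difference was 0.04 on the log2 scale with an interval from −0.26 to 0.35.

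The 2 glutathione peroxidases, which reduce lipid and hydrogen peroxides, had differences of 0.00 (A19307) and 0.08 (A4485) on the log2 scale. Their intervals ran from −0.33 to 0.33 and from −0.25 to 0.40. Peroxiredoxin A1167, a thiol-based peroxidase, was at 5215 and 5912 in unstressed and 5695 and 5043 in stressed pools. Its difference was −0.05 (−0.41 to 0.31), and the groups overlapped.

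**Figure D3:**
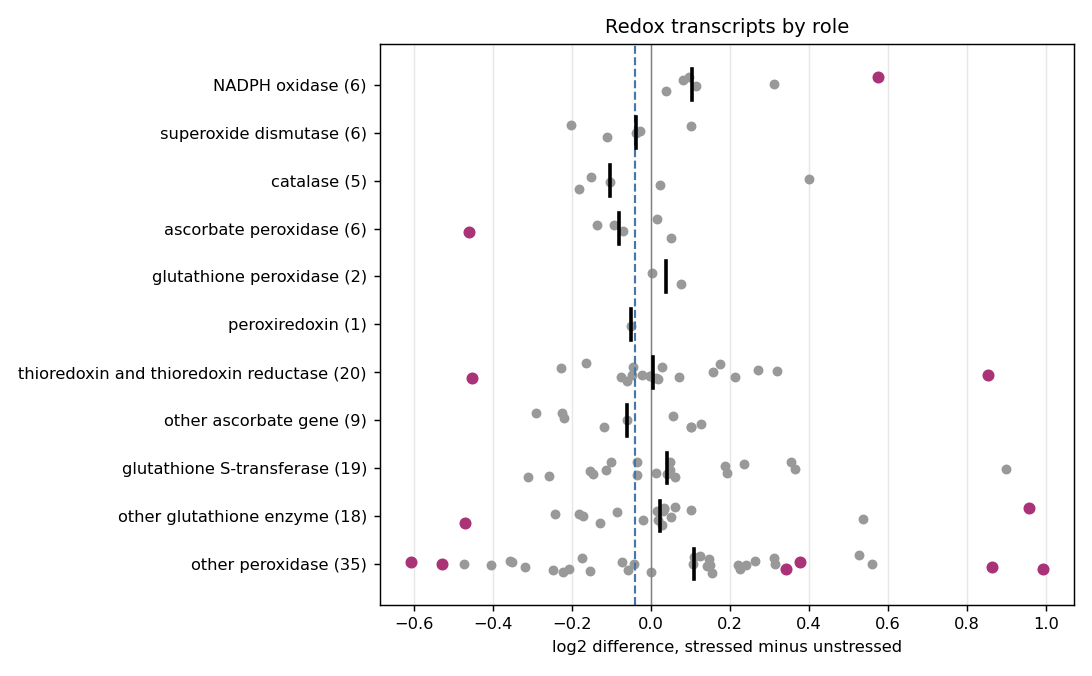
Log2 difference of each redox transcript, stressed minus unstressed, by the role its description gives, with the number of transcripts in brackets. Purple points have an unadjusted p under 0.05, black bars are medians of the role and the dashed blue line is the median of all 4000 transcripts (−0.04). Role medians lie between −0.10 for catalases and 0.11 for other peroxidases.

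All 6 respiratory burst oxidases, the enzymes that make superoxide at the cell surface, had positive log2 differences, from 0.04 to 0.57 with a median of 0.11. Over the whole array 1570 of 4000 transcripts were positive. None of the 6 was called. A13589, a respiratory burst oxidase 2 homolog, was at 3302 and 3122 in unstressed and 4293 and 5322 in stressed pools. The 1.49-fold difference upward had an interval of 1.13 to 1.96 (limma adjusted p = 0.47). The groups overlapped in the other 5 oxidases (83.3% of the 6, against 68.5% of all transcripts). A5870, which resembles the same protein, was at 1622 and 2103 in unstressed and 2096 and 2508 in stressed pools, 1.24-fold higher (0.89 to 1.73, adjusted p = 0.99). Stressed replicate 1 and unstressed replicate 2 were almost equal there.

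The 6 superoxide dismutases, which feed the hydrogen peroxide pool, all had log2 differences within 0.25 of 0, from −0.20 to 0.10. For each of the 6 the 95% confidence interval lay within 1.5-fold in either direction. The iron enzyme A2614 was at 2902 and 2396 in unstressed and 2281 and 2307 in stressed pools, 1.15-fold lower (0.89 to 1.49, limma adjusted p = 0.99). The copper and zinc enzyme A24388 was 1.08-fold lower (0.87 to 1.33), and a further iron enzyme, A910, differed by −0.04 on the log2 scale.

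The 5 catalases, which break down hydrogen peroxide in peroxisomes, had overlapping groups throughout (100%, against 68.5% of all transcripts) and a median log2 difference of −0.10. They differed between replicate pools more than between groups. A886 was at 27410 and 20707 in unstressed and 25691 and 17886 in stressed pools, so replicate 1 was the brighter pool of each group. The same order held for A329 (16970 and 13330, then 18006 and 9772) and A1379 (10535 and 7960, then 10197 and 7130), and the opposite order for A29 and A124. A29 was at 38981 and 41131 in unstressed and 40212 and 41164 in stressed pools, a log2 difference of 0.02 (−0.28 to 0.33). A124 was at 335 and 457, then 390 and 683, with a difference of 0.40 and an interval from −0.41 to 1.21. Intervals of 3 of the 5 catalases lay within a 2-fold difference.

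Among 6 ascorbate peroxidases, which reduce hydrogen peroxide with ascorbate, the peroxisomal homolog A25591 was at 2082 and 2176 in unstressed and 1634 and 1465 in stressed pools. It was 1.38-fold lower (1.10 to 1.73, limma adjusted p = 0.49), and its groups did not overlap. The other 5 had log2 differences within 0.25 of 0, among them the cytosolic homolog A556 at 21177 and 26005 in unstressed and 21308 and 21432 in stressed pools (−0.14, −0.52 to 0.25). Of the 9 further ascorbate genes, 3 are described as chloroplast thylakoid-bound ascorbate, a name cut off before the enzyme, and ranged from −0.29 to 0.10. Whether these 3 are ascorbate peroxidases cannot be read from the description, and they were not counted as such. Dehydroascorbate reductase A36553 and monodehydroascorbate reductase A447, which recycle oxidised ascorbate, differed by −0.23 (−0.66 to 0.21) and 0.06 (−0.31 to 0.43). The groups overlapped for both reductases. A712, described as a DHAR (dehydroascorbate reductase) class glutathione transferase, was counted with the transferases. It differed by 0.06 (−0.36 to 0.49), and its groups also overlapped.

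Thioredoxins and their reductases, which pass electrons to disulphide bonds of other proteins, numbered 20, with a median log2 difference of 0.01 and 16 members within 0.25 of 0. The 20 include A125195, A162253, A190951, A49205, A98968, A17816 and A23690, described only by a thioredoxin fold or domain. That description does not show that they are thioredoxins. A49205, described only as having a thioredoxin fold, was at 730 and 576 in unstressed and 1571 and 873 in stressed pools. The 1.81-fold difference upward had an interval of 1.03 to 3.16 (limma adjusted p = 0.83), and the stressed pools differed from each other by 1.80-fold. A125195, also a thioredoxin-fold protein, was at 1112 and 1011 in unstressed and 866 and 695 in stressed pools, 1.37-fold lower (1.03 to 1.82, adjusted p = 0.78). Both transcripts had separated groups, in opposite directions. The cold-induced thioredoxin homologs A9961 and A16700 had separated groups with differences of 0.21 and 0.17, and the thioredoxin-domain transcript A23690 differed by −0.23, each at a limma adjusted p of 0.99. The thioredoxin-like A3387 was at 10140 and 10287 in unstressed and 9295 and 11678 in stressed pools, with no separation.

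The 127 members resembled 103 different proteins. In 21 cases a protein was shared by 2 or 3 members, 45 in all, which may be related genes or pieces of the same transcript. Members that share a protein are thus not separate samples of a family. Their log2 differences spanned a median of 0.26 within a case, and in 10 cases they had both signs. The peroxidase 5 precursors A9782 (0.56) and A229987 (−0.53) and the thioredoxin-fold transcripts A162253 (0.27) and A125195 (−0.45) were separated between groups in opposite directions. The difference between the 2 members of a case was not tested. The lyases A10453 and A9747 and the cold-induced thioredoxins were separated in the same direction.

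**Figure D4:**
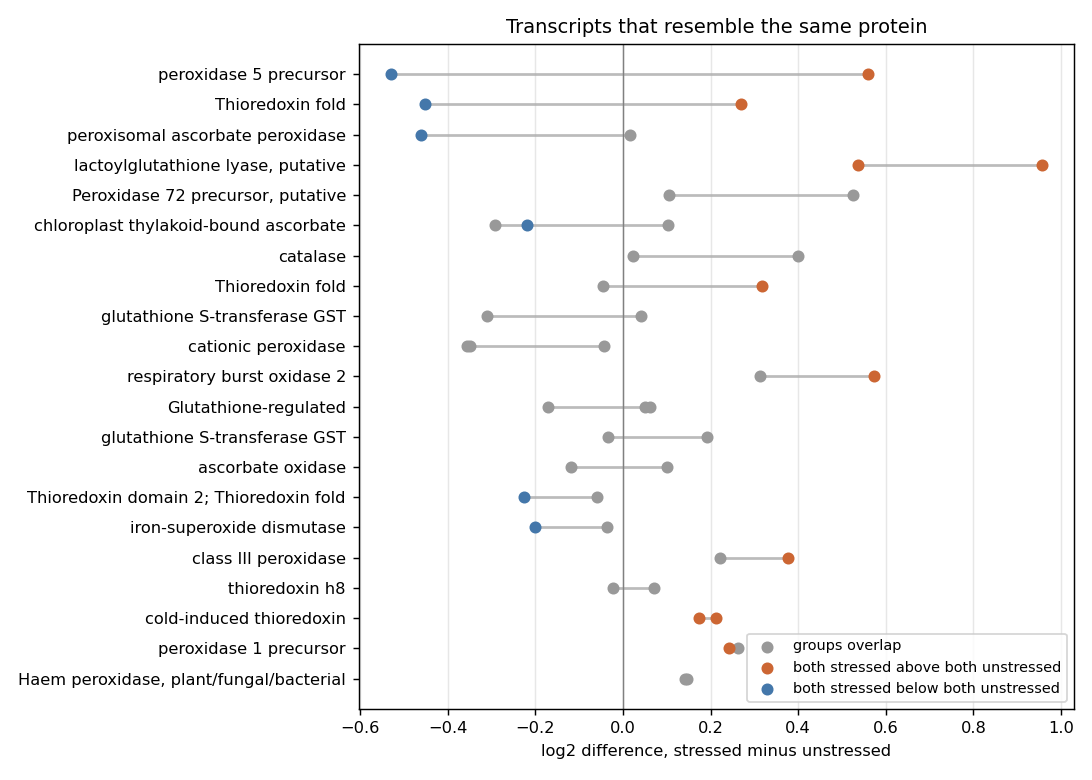
Log2 differences, stressed minus unstressed, of the 45 redox transcripts that share their most similar protein with another member, 1 line for each of 21 proteins. Orange points have both stressed arrays above both unstressed arrays, blue points both below, and grey points overlap. The peroxidase 5 precursors span −0.53 to 0.56, the widest of the 21.

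At the bottom of the scale, 8 members stayed under 70 on every array (44.9 to 66.2), where the lowest of all transcripts stood at 44.2 to 45.5 by array. These members were picked out after their values were seen. They were 3 glutathione reductases (A350254, A377711 and A380187), 2 thioredoxin reductases (A311521 and A708032), an NADH peroxidase (A795497), an L-ascorbate 6-phosphate protein (A404197) and an ascorbate-specific PTS protein (A344855). PTS proteins are known as parts of bacterial sugar uptake systems, and the files do not say whether all 8 are transcripts of koa. Log2 differences of the 8 lay between −0.08 and 0.13, but signals this close to the bottom could hide a change. Without them the median difference of the other 119 members was 0.02.

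Redox genes that the search words did not cover were taken from a separate list of 45 transcripts, such as glutaredoxins, ferritins, alternative oxidases and germins. In it 1 was called lower, none higher, and the median log2 difference was 0.00, with 23 positive and 22 negative. The called one was ferritin-3 (A8737), an iron-storage protein, at 23064 and 20983 in unstressed and 7570 and 6487 in stressed pools, so it fell 3.14-fold (2.44 to 4.04, limma adjusted p = 0.017). Alternative oxidase 1A (A9025), a mitochondrial enzyme that diverts electrons from the respiratory chain, was at 4192 and 4772 in unstressed and 6665 and 6912 in stressed pools, with a difference of 0.60 (adjusted p = 0.28). The lignin list, 49 transcripts that include laccases and the enzymes that make the units class III peroxidases join, held no call and had a median of 0.05. Its smallest p belonged to the laccase A213127, at 694 and 711 in unstressed and 526 and 551 in stressed pools (−0.38, adjusted p = 0.61), opposite in sign to A763. The cinnamoyl-CoA reductase-like A15688 was at 1813 and 1531 in unstressed and 4059 and 2100 in stressed pools (0.81, adjusted p = 0.97). A list called xylem here took 39 transcripts whose description holds cellulose synthase, laccase or xylem, words that do not restrict a transcript to xylem. Its median was −0.08. The 7 root and nodule transcripts, taken by the words nodulin, leghemoglobin or root-specific, had a median of 0.05. Such words do not restrict a transcript to roots or nodules either, and A49531 and A49940 are described only as nodulin-like. Neither list held a call. The xylem list shares its laccases with the lignin list. In 10 xylem transcripts both stressed arrays lay below both unstressed ones (25.6%, against 19.5% of all transcripts), and in 1 they lay above (2.56%, against 12%). The cellulose synthase A103931, of the family that makes wall cellulose, had the smallest p of the xylem list, at 2712 and 3361 in unstressed and 1874 and 1741 in stressed pools (−0.74, limma adjusted p = 0.25). The nodulin A268015 had the lowest log2 difference of the root and nodule transcripts (−1.05, limma adjusted p = 0.17), while the other 6 differed by −0.05 to 0.21. The intensity of A268015 was 1261 and 901 in unstressed and 513 and 517 in stressed pools. The part of organ or tissue proportions in the values above was not tested.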

How the data were processed

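The authors deposited 1 RMA intensity, on a linear scale, for each transcript of an array, per the submitters' processing notes, which name neither a version nor settings. The series-wide table repeats these values (largest difference 0). The number of probes per transcript (an other kind of value, as deposited) was read from the array files, and an error column of unexplained scale was not used. Intensities were converted to log2. Stressed minus unstressed was estimated for all 4000 transcripts, unfiltered, by limma (lmFit, eBayes; version 3.58.1, under R 4.3.3), and the model held no term besides group. Benjamini-Hochberg adjustment covered every transcript, at a threshold of 0.05. Intervals are limma's unadjusted 95% intervals. The number of arrays limits the precision: for 1 value, permuting 2 and 2 arrays exactly gives at best p = 0.333 (two-sided). P-values measure only the spread between these pools. The fit was also run on simulated data with independent noise on each array. Same-numbered pools deviated together in the real data, so that run does not show how the fit performs on these arrays.

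Members and lists were chosen with earlier results of these data known, and 1 role pattern was corrected after the descriptions were read. Named members were called ones, the 10 largest separated differences in each direction, and in each role the 2 smallest p-values and the brightest transcript (39 in all). Each other list named up to 3. Further named transcripts were chosen after their values were seen. Alternatives left out each array, used the replicate number as a term, normalised or centred the arrays again, left out dim transcripts, added 50 to intensities and changed the prior variance.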

Additional observations from a re-analysis of the deposited data

How the results depend on the processing

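No member was called in the fits that left out 1 array, normalised or centred the arrays again, left out the dimmest 25% of transcripts, added 50 to the intensities or changed the prior variance. The exception was the replicate block, with the titles' replicate numbers as a term: 6 members were called, among 139 transcripts in all, and 25 members had an unadjusted p under 0.05. The 6 were A763 (adjusted p = 0.00033), A10453 (0.0020), A49205 (0.0025), A113806 (0.0025) and A13589 (0.042), which were higher, and A30691 (0.044), which was lower. Same-numbered pools deviated together (r = 0.505 over 4000 transcripts and 0.298 over the members), but nothing in the labels ties them and 2 pairs cannot settle it. Left-out arrays gave 8 to 27 transcripts called, 6 to 21 members at unadjusted p under 0.05 and 74 to 97 separated members, the last because fewer arrays are easier to separate. The separation counts and the exclusion of members under 70 were added after seeing the data. For the 12 members at unadjusted p under 0.05, the sign was kept in all 131 alternative values. Sign changes touched 10 of the 39 named members, all with differences within their replicate spread. Over the fits that left out 1 array, A1167 ran from −0.14 to 0.039, A124 from −0.0028 to 0.80, A19307 from −0.081 to 0.084, A29 from −0.016 to 0.062, A3387 from −0.14 to 0.19, A447 from −0.074 to 0.19, A556 from −0.28 to 0.013, A886 from −0.41 to 0.11, A910 from −0.11 to 0.039 and A98 from −0.0021 to 0.085. A19307 was also at −0.011 with arrays centred on their median. The cause was not tested.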
